A study of Bos taurus with 54 samples.

Results

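The core circadian clock genes of bovine blood were compared between 6AM and 6PM: the period genes PER1, PER2 and PER3, the cryptochromes CRY1 and CRY2, the activator CLOCK, the nuclear receptors NR1D1 and NR1D2, and the output factors DBP and TEF. They were chosen by gene symbol, and all 10 had a row among the 32637 genes of each count table. Blood came from 15 male Holstein calves kept in climate-controlled rooms, sampled under thermoneutral conditions (control, 6AM, drawn at 6:30) and after 12 h of heat exposure (heat stress, 6PM, drawn at 18:30), and the red cells were lysed before RNA isolation. The calves' ages and the room climate were not given in the sources used here. Each RNA was sequenced from the 3′ ends of its transcripts with Takara's SMART-Seq v4 3′ DE chemistry (Takara kit), with QuantSeq 3′ from Lexogen (Lexogen kit), or with both. Every control was drawn in the morning and every heat stress sample in the evening, so hour of day and heat cannot be told apart in any value below.

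The clock is a feedback loop that runs in nearly all cells. CLOCK and its partner BMAL1 switch on the PER and CRY genes, whose proteins return to repress that pair, while NR1D1 and NR1D2 repress BMAL1 in a second loop. DBP and TEF are activators that bind D-box elements and pass the rhythm to other genes, and NFIL3 represses through the same elements. Circulating leukocytes carry this clock, and the number of each leukocyte type in blood also follows the time of day.

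Each kit had 13 libraries at 6AM and 13 at 6PM, of which 12 animals had both. The libraries of animal 20 were left out because the sources disagree on its time. The study's sample table numbers the calves otherwise than the labels do. Matched in numeric order, its control and heat columns reversed the labels for every calf that lacks a library, animal 20 included. The paper's methods likewise count more blood samples before heat than after, where the labels hold more RNA samples at 6PM. Which source holds the right time was not settled. GEO's labels are used here, so the direction of every difference rests on them. Reads on genes ranged from 5140595 to 20699030 per Takara library, with a median of 11217979, and from 4516761 to 58521751 per Lexogen library, with a median of 9866693. Levels are given as CPM, a gene's counts divided by the library's reads on genes and scaled to 1e+06 reads. The sample numbers fall into 2 runs with a gap between them, and results are also given by run. One Lexogen library stood apart for these genes: in the 6PM library of animal 18, which had 4604914 reads on genes, 9 of the 10 members had no read. A count of 0 there allows up to 0.651 CPM, the level of 3 counts, and covers counting error only. The Takara library of the same RNA held 217 counts of CLOCK, 78 of CRY1, 76 of PER1, 73 of NR1D2 and 64 of DBP. Lexogen fits were therefore also run without animal 18.

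Of the 10 members, 8 passed the filter on low counts in each kit, and the 2 that did not were PER2 and NR1D1. With the Takara kit 1 of the 8 tested members changed at an adjusted p below 0.05 (edgeR quasi-likelihood test, Benjamini-Hochberg over all genes tested). That member was DBP, which fell. The main fit held time alone and did not pair the 2 libraries of a calf. Over all 12620 genes tested with this kit, 28.9% were called, 18.4% as higher and 10.5% as lower at 6PM, so a share this large is the background against which the members' count is read. At an unadjusted p below 0.05 the test passed PER3, CLOCK, NR1D2 and DBP, all of them lower. Of the 12620 genes 5166 also reached that level, 2279 of them lower. The median log2 fold change of the 8 members was −0.41, beside −0.05 for all genes tested. With the Lexogen kit none of the 8 was called. Of the 11108 genes tested 5.55% were called, 5.09% as higher and 0.459% as lower. None of the 8 reached an unadjusted p below 0.05, a level that 1877 of the 11108 genes reached. With the animal as a block that kit called 63 genes in place of 616. DESeq2 also called none with that kit and called DBP alone with the Takara kit. The median of the 8 was −0.50 with the Lexogen kit, beside −0.08 for all genes.

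**Figure D1:**
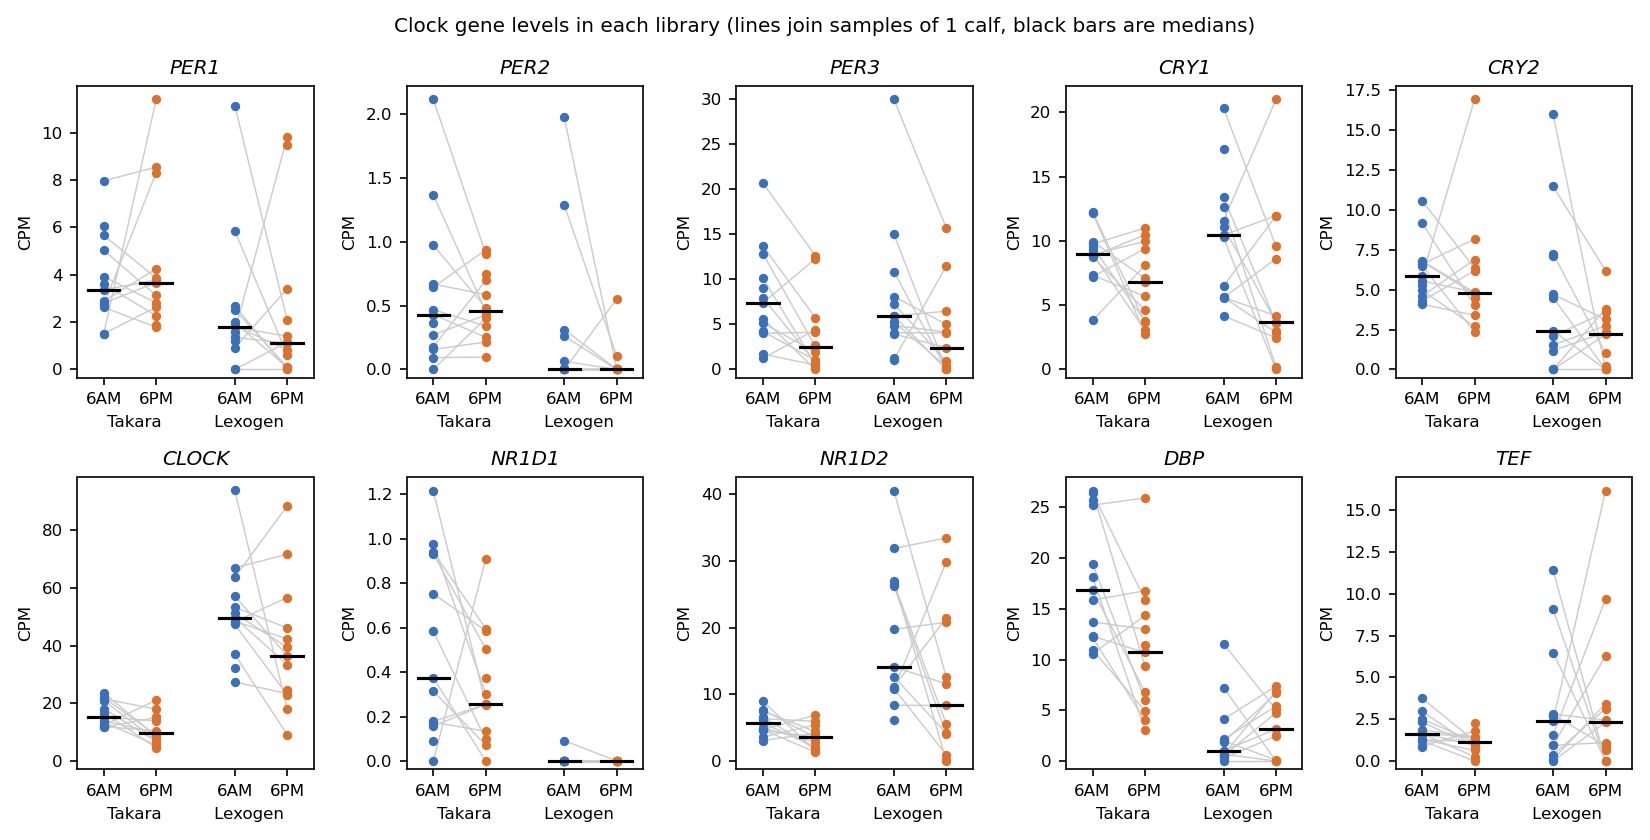
Level of each clock gene in CPM (vertical axis, from 0, different range per gene) in the 6AM control (blue) and 6PM heat stress (orange) libraries of each kit. Grey lines join samples of 1 calf and black bars are medians. The 6AM and 6PM libraries overlapped for every gene, and the median of DBP with the Takara kit went from 16.8 to 10.7 CPM.

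Among the repressors of the loop, PER3 had the largest difference with the Takara kit. Its 13 control libraries ranged from 1.24 to 20.6 CPM with a median of 7.38, and its 13 heat stress libraries from 0 to 12.6 CPM with a median of 2.54. The groups overlapped, but the evening level was lower in 9 of 12 animals. The fitted log2 fold change was −1.02 ± 0.48 (SE), with an adjusted p of 0.105. In Lexogen libraries PER3 went from a median of 5.94 CPM, within 1.09 to 29.9, to a median of 2.42 CPM, within 0 to 15.7. It was lower at 6PM in 10 of 12 animals, and its log2 fold change was −1.03 ± 0.71 (SE) with an adjusted p of 0.512. In the 10 animals with both times in both kits, the 2 kits gave PER3 the same sign in 9, lower in 7 and higher in 2. By run the Takara value of PER3 was −0.35 in the first and −1.61 in the second, where 6 of 6 animals were lower, and the run-by-time term of −1.28 ± 0.93 (SE) had an adjusted p of 0.532. PER3 lies at chr16:45533849-45603004 of ARS-UCD2.0 and overlaps no other annotated gene.

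PER1, the period gene that also responds acutely to hormones and stress in many cells, did not share that direction. In Takara libraries it ranged from 1.51 to 7.97 CPM at 6AM (median 3.37) and from 1.79 to 11.4 CPM at 6PM (median 3.67), higher in 7 of 12 animals. Its log2 fold change was 0.61 ± 0.34 (SE) with an adjusted p of 0.170. The Lexogen value was 0.03 ± 0.80 (SE), with medians of 1.78 and 1.11 CPM and an adjusted p of 0.993. That fit includes the unpaired 6PM library of animal 15, which held 554 counts of PER1, or 9.47 CPM. PER1 was lower at 6PM in 8 Lexogen pairs and higher in 3, with no read at either time in 1. The median difference within pairs was −1.22 after TMM scaling. The sign of the fitted value turned to −0.12 when libraries were scaled by total count, and to −1.18 with the animal as a block. PER1 lies at chr19:27778459-27793616. PER2, at chr3:117557012-117599734, was close to the detection limit. Its Takara libraries held between 0 and 26 counts, and 19 of the 26 Lexogen libraries held none, so no difference was detectable at this depth. PER2 overlaps an uncharacterised lncRNA gene, LOC132344956, over 3269 bases.

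The cryptochromes, the partners of the PER proteins, were measured in every Takara library and were not called. CRY1 (chr5:70260107-70355851) had a median of 8.98 CPM at 6AM, within 3.81 to 12.3, and of 6.76 CPM at 6PM, within 2.77 to 10.996. Its log2 fold change was −0.25 ± 0.18 (SE) with an adjusted p of 0.306, and it was lower at 6PM in 7 of 12 animals. CRY1 spans a pseudogene, LOC107132502, and reads on both genes are left uncounted in the unstranded column. Over the Takara libraries CRY1 held 2164 sense and 43 antisense reads, beside 2207 unstranded. CRY2 (chr15:75880414-75915194) had medians of 5.84 and 4.82 CPM and a log2 fold change of 0.10 ± 0.21 (SE), adjusted p 0.749, which became −0.09 under total count scaling. Lexogen libraries gave CRY1 and CRY2 values of −0.66 ± 0.51 and −1.17 ± 0.88 (SE), with adjusted p of 0.568 and 0.551. CRY2 had no read in 7 of those 26 libraries.

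CLOCK, which with BMAL1 drives the loop, had a median of 15.2 CPM at 6AM with the Takara kit, within 11.7 to 23.6, and of 9.82 CPM at 6PM, within 4.55 to 21.1. The log2 fold change was −0.38 ± 0.18 (SE) and the adjusted p was 0.110. It depended on the scaling: with libraries scaled by total count it was −0.56 and passed the test, and with sense strand counts it was −0.51 with an adjusted p of 0.039. Lexogen medians were 49.7 and 36.5 CPM, and the log2 fold change was −0.33 ± 0.26 (SE), adjusted p 0.577. CLOCK lies at chr6:70867167-70978567, and antisense reads made up 9.36% of its stranded counts with the Takara kit and 14.9% with the Lexogen kit.

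The difference of CLOCK between 6AM and 6PM was itself different between the 2 runs of sample numbers with the Takara kit. In the first run the control libraries ranged from 11.7 to 15.2 CPM and the heat stress libraries from 5.53 to 21.1 CPM. In the second run the control libraries ranged from 16.7 to 23.6 CPM and the heat stress libraries from 4.55 to 18.0 CPM. The 6AM levels of the 2 runs did not overlap, and the 6PM levels did. In Lexogen libraries the 6AM levels overlapped, at 36.9 to 67.0 CPM in the first run and 27.4 to 93.8 CPM in the second. Within the second Takara run CLOCK was lower at 6PM in 6 of 6 animals, by 0.37 to 1.49 on the log2 scale. The fit to that run alone gave −1.08 with an adjusted p of 0.034. Within the first run it was lower in 2 of 6 animals after TMM scaling and in 4 of 6 by plain CPM, and the fit gave 0.27 with an adjusted p of 0.247. The run-by-time term was −1.40 ± 0.25 (SE), with an adjusted p of 0.0029, where 2.58% of genes were called, 0.571% as higher and 2% as lower. With the animal as a block the term was −1.36 with an adjusted p of 0.029, and under total count scaling it was −1.20 with an adjusted p of 0.094. For Lexogen libraries the term was −0.37 ± 0.54 (SE), adjusted p 0.949, where 0.018% of genes were called, 0.009% in each direction. The runs hold different calves, so calf and run cannot be told apart. The summed levels of leukocyte and blood cell markers also differed between the runs in the Takara controls. From the first to the second run the 6AM median was 14640 and 9315 CPM for neutrophil, 594.8 and 333.7 for monocyte, 1719 and 3255 for platelet, 1041 and 2013 for erythroid, 1469 and 1358 for T cell, 1029 and 961 for B cell, 142 and 165 for NK cell and 124 and 129 CPM for eosinophil markers. Their part in the CLOCK difference was not tested. No other member passed the run-by-time test in either kit.

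**Figure D2:**
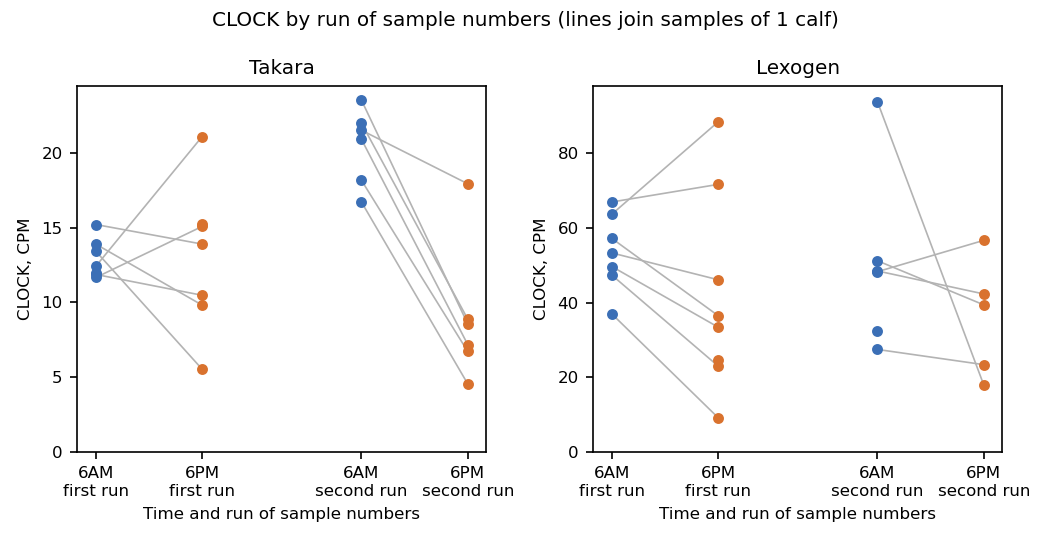
CLOCK in CPM (vertical axis, from 0) at 6AM (blue) and 6PM (orange), split by run of sample numbers, with lines joining samples of 1 calf. With the Takara kit all 6 calves of the second run had less CLOCK at 6PM, from 6AM levels of 16.7 to 23.6 CPM, while the first run, at 11.7 to 15.2 CPM in the morning, was mixed.

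The nuclear receptors of the second loop were unequal in detection. NR1D2 (chr27:41985187-42013956) went from a median of 5.71 CPM, within 3.07 to 8.96, to 3.59 CPM, within 1.35 to 6.88, with the Takara kit. It was lower in 8 of 12 animals after TMM scaling and in 9 of 12 by plain CPM. The log2 fold change of −0.44 ± 0.21 (SE) had an adjusted p of 0.114. Total count scaling gave −0.66, which passed the test. In Lexogen libraries NR1D2 went from 14.1 to 8.33 CPM by the medians, and its log2 fold change was −0.66 ± 0.54 (SE), adjusted p 0.598. NR1D1 held between 0 and 19 counts per Takara library, and 25 of the 26 Lexogen libraries held none. Its end overlaps THRA, the thyroid hormone receptor gene, at chr19:40389831-40390931, and reads on both genes are left uncounted in the unstranded column. Counted by strand, NR1D1 held 154 sense reads over all Takara libraries, beside 124 unstranded, and 70 beside 1 over all Lexogen libraries. Part of its reads is therefore missing from the unstranded counts, and no difference is drawn from it.

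DBP was the member called with the Takara kit. Its control libraries ranged from 10.6 to 26.6 CPM around a median of 16.8, with a mean of 18.0 ± 6.15 (SD, n = 13). Its heat stress libraries ranged from 3.09 to 25.9 CPM around a median of 10.7, with a mean of 10.9 ± 6.39 (SD, n = 13). The groups overlapped. DBP was lower at 6PM in 10 of 12 animals after TMM scaling and in 9 of 12 by plain CPM. The log2 fold change was −0.58 ± 0.21 (SE; 95% interval −1.01 to −0.14), with an adjusted p of 0.0417. The animal as a block gave −0.59 with an adjusted p of 0.031, where 25% of genes were called, 14.9% as higher and 10.1% as lower. The call was close to the threshold: it was lost without animal 7, 15, 16, 18, 23, 32, 36 or 40, with adjusted p up to 0.0955, and kept without any of the other 6 animals. Within the runs of sample numbers DBP was −0.51 in the first and −0.62 in the second, with adjusted p of 0.182 and 0.180, so it was called in neither alone. DBP lies at chr18:55272312-55278976. Antisense reads made up 37.9% of its stranded counts with the Takara kit, and on sense counts alone it was still called, with an adjusted p of 0.024.

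TEF, the relative of DBP that binds the same elements, was low with the Takara kit, with a median of 1.64 CPM at 6AM, within 0.817 to 3.75, and of 1.15 CPM at 6PM, within 0 to 2.25. It was lower in 10 of 12 animals after TMM scaling and in 11 of 12 by plain CPM. The log2 fold change was −0.59 ± 0.35 (SE), the same size as that of DBP, with an adjusted p of 0.205. TEF lies at chr5:112496887-112520320. DBP and TEF in Lexogen libraries pointed the other way, at 0.52 ± 0.79 and 0.30 ± 0.81 (SE), with adjusted p of 0.816 and 0.907. The medians of DBP there were 1.01 and 3.13 CPM, and 4 libraries had no read of it. Antisense reads made up 16.6% of its stranded counts in that kit, with 68 of 68 counts in the 6PM library of animal 23 and 29 of 31 in that of animal 32, and on sense counts the DBP value was 0.20 with an adjusted p of 0.946. The difference between kits in the DBP effect was −1.23 with a 95% interval of −3.40 to 0.95, so the opposite signs lay within the error. No member passed this test between kits, and none of the 13354 genes in that fit was called. An unadjusted p below 0.05 was reached by 526 genes, fewer than that threshold would pass with no difference at all. Without animal 18 the Lexogen kit called no member either, and the median of the 8 was −0.40. The log2 fold changes were then 0.22 for PER1, −0.85 for PER3, −0.55 for CRY1, −1.10 for CRY2, −0.29 for CLOCK, −0.51 for NR1D2, 0.89 for DBP and 0.49 for TEF.

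**Figure D3:**
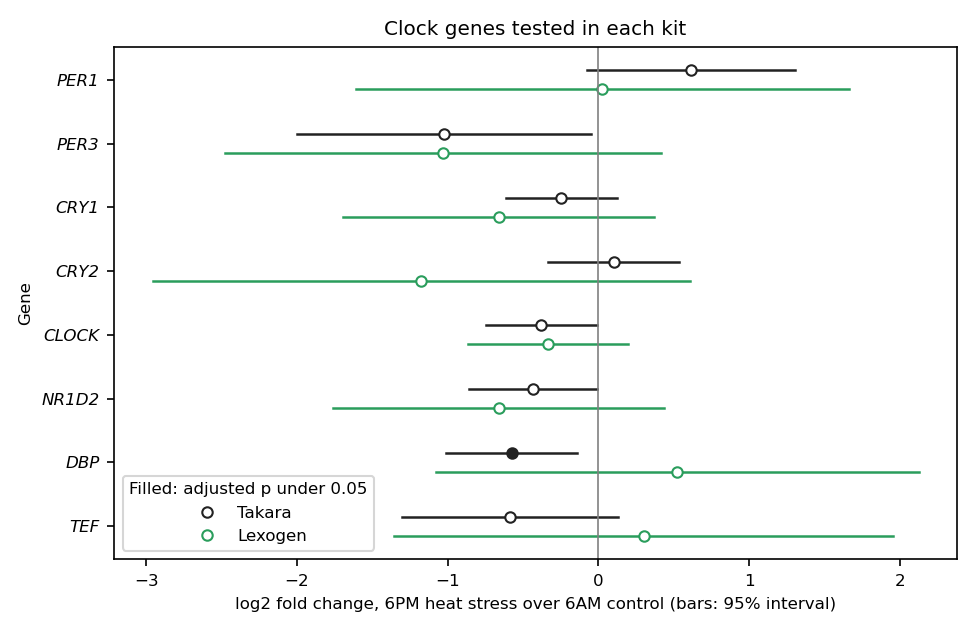
Log2 fold change of 6PM heat stress over 6AM control (horizontal axis) with its 95% interval for the 8 tested clock genes, Takara in black and Lexogen in green. DBP with the Takara kit is the only filled point, meaning an adjusted p below 0.05, at −0.58, and the Lexogen intervals are the wider ones for every gene.

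The calves differed widely. After TMM scaling, between 1 and 8 of the 8 tested members were lower at 6PM in a single animal with the Takara kit, and more than 4 were lower in 9 of 12 animals. Animal 41 had 1 member lower and animal 14 had all 8 lower. Without animal 41 the Takara kit called 3 members, adding PER3 at −1.31 and CLOCK at −0.49 to DBP. It then called 29.9% of all genes, 11.1% as lower. The differences of DBP were set beside those of NFIL3, its counterpart at the D-box, after both had been seen. In animals 3, 14, 41 and 12, where NFIL3 differed by −0.73, −0.02, 0.25 and 0.66 on the log2 scale, DBP differed by −0.07, −0.11, 0.04 and 0.50. In animals 18, 36 and 40, where NFIL3 differed by 5.01, 4.27 and 3.78, DBP differed by −1.82, −1.31 and −0.89. PER3 ran from 1.74 in animal 12 to −5.07 in animal 36. In the Lexogen libraries the signs were mixed. The 2 genes shared a sign in animals 3, 16, 23, 32, 36 and 40 and were opposed in animals 12, 18, 19, 29 and 41. In animals 23 and 32 the sign of DBP depended on the strand. Their 6PM reads of DBP were mostly antisense, and the sense counts went from 19 to 0 and from 6 to 2. Animal 14 had no read of DBP at either time. NFIL3 and DBP differed by 4.25 and 2.86 in animal 36, by 4.14 and 1.46 in animal 40, and by 2.76 and 2.55 in animal 16. They differed by 2.84 and −3.03 in animal 29, by 0.50 and −2.21 in animal 12, and by 0.37 and −0.94 in animal 19. In animal 18, whose 6PM library held no read of DBP, they differed by 2.96 and −5.17. These are descriptions of 12 animals per kit, with no test.

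**Figure D4:**
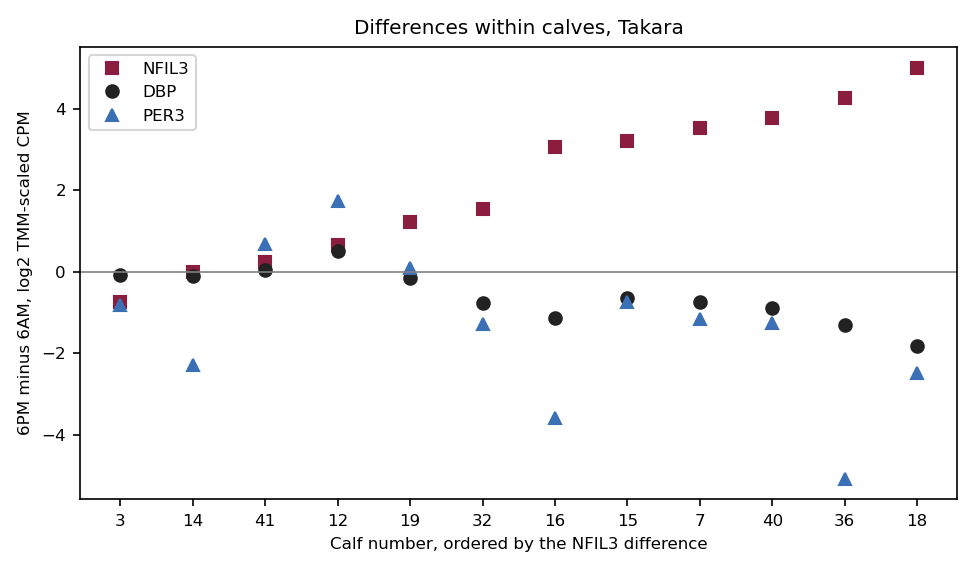
Difference of 6PM minus 6AM on the log2 TMM-scaled CPM scale (vertical axis) within each of 12 calves with the Takara kit, ordered by the NFIL3 difference. NFIL3 (squares) runs from −0.73 to 5.01, and DBP (circles) is at −0.63 or below in the 7 calves on the right.

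The rest of the clock pathway was read from 25 further genes, of which 19 passed the filter in each kit. In Takara libraries 8 changed, 7 higher and 1 lower, beside the 18.4% and 10.5% of all genes. NFIL3 rose most. Its controls ranged from 8.02 to 44.8 CPM (median 24.04) and its heat stress libraries from 17.5 to 347.5 CPM (median 97.8), with a log2 fold change of 2.81 ± 0.48 (SE) and an adjusted p of 0.000371. BHLHE41, a repressor of CLOCK and BMAL1 activity, fell by 0.70 on the log2 scale, with an adjusted p of 0.00567, and was lower in 12 of 12 animals. Within the runs NFIL3 was called in both, at 2.94 and 2.66, and BHLHE41 in the first alone, at −0.89 and −0.54, a difference that did not pass its test (run-by-time term 0.31, adjusted p 0.706). Among the genes for modifiers and degradation of PER and CRY proteins, the ubiquitin ligase subunit BTRC rose by 1.15, and the kinases CSNK1D and GSK3B by 0.61 and 0.39. The cofactors SIRT1 and CREBBP, a deacetylase and an acetyltransferase, rose by 0.87 and 0.91. Under total count scaling CSNK1D, GSK3B and SIRT1 were no longer called, and with the animal as a block GSK3B was not, at an adjusted p of 0.0981. GSK3B was also not called without animal 7, 15, 16, 18, 36 or 40, with adjusted p up to 0.0704. BMAL1, listed under its older symbol ARNTL, gave 0.33 ± 0.21 (SE) with an adjusted p of 0.243.

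With the Lexogen kit 2 of the 19 changed, both higher, where 5.09% of all genes were called higher. NFIL3 rose by 2.12 ± 0.41 (SE), from a median of 34.5 to one of 86.0 CPM, with an adjusted p of 0.0016. CREBBP rose by 0.88 ± 0.21 (SE), with an adjusted p of 0.00822. With the animal as a block neither passed, at adjusted p of 0.0593 and 0.117. In the 10 animals with both times in both kits, NFIL3 had the same sign in 8 after TMM scaling. SIRT1, at 0.62 and an adjusted p of 0.0726, was called without animal 3 or animal 14.

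**Figure D5:**
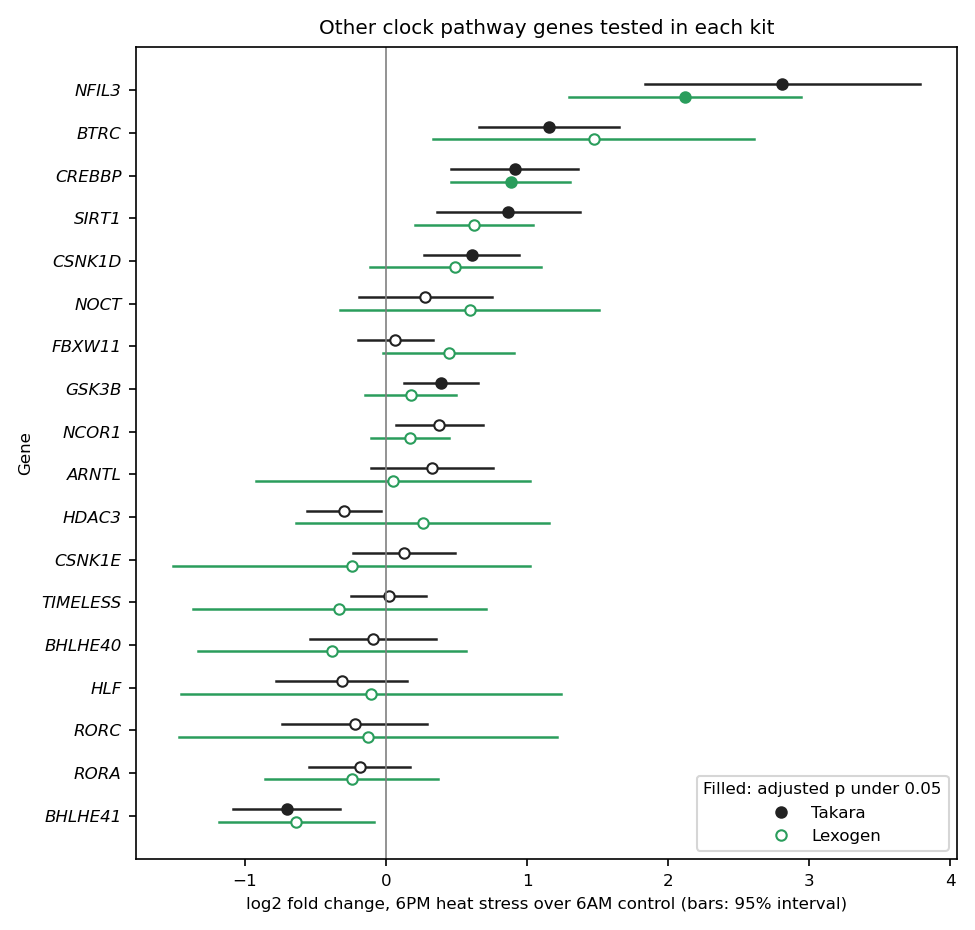
Log2 fold change of 6PM over 6AM with its 95% interval for 18 of the 19 other clock pathway genes tested, Takara in black and Lexogen in green, filled where the adjusted p is below 0.05. NFIL3 stands highest in both kits, at 2.81 and 2.12, and BHLHE41 lowest, at −0.70 and −0.64.

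Marker lists of the leukocyte types were read in the same comparison. Of 8 neutrophil markers 7 rose with the Takara kit, and their summed level went from a median of 13138 CPM, within 4147 to 19453, to 41588 CPM, within 4481 to 75603. Of 10 T cell markers 5 fell, and their sum went from a median of 1469 CPM, within 1127 to 2317, to 911 CPM, within 491.3 to 1886. Of 8 B cell markers 1 fell, with summed medians of 1029 and 650.4 CPM. Of the monocyte markers 3 of the 7 tested rose, and of the NK cell markers 1 of 4. These counts stand beside 18.4% of all genes called higher and 10.5% called lower, and those of the B cell and NK cell lists, with 1 gene each, lie near that background. No eosinophil, platelet or erythroid marker was called. Among Lexogen libraries 5 of 7 tested neutrophil markers and 1 of 4 NK cell markers rose and no other marker was called, beside 5.09% of all genes called higher. The alpha globin gene HBA was at 0 in 25 of 26 Takara and 26 of 26 Lexogen libraries. The beta globin gene HBB was read in every library, with medians of 1365 CPM for Takara and 285 CPM for Lexogen, so globin RNA was present. Fewer cells of a type and less RNA per cell cannot be told apart in bulk blood, and the part of these markers in the clock gene values was not tested. The gene whose level followed DBP most closely over the 26 Takara libraries, of 9656 candidates, was SIT1, a lymphocyte adaptor gene, with a Pearson r of 0.916, or 0.895 after each time's mean was removed. Over the Lexogen libraries the r was 0.263. The points share library depth and scaling, and the correlation is a description.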

How the data were processed

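The authors trimmed the forward reads with Trimmomatic 0.39, aligned them to ARS-UCD2.0 with STAR 2.7.10b and deposited its raw read counts per gene (unstranded, sense and antisense), with no normalization. Which column the study analysed is not given in the sources used here. The unstranded counts were used, and the unmapped, multimapped, featureless and ambiguous totals were left out. Counts were scaled by TMM and tested in each kit with edgeR's quasi-likelihood test (version 4.0.16, R 4.3.3), after its filter on low counts, with adjusted p over all genes tested. Time was the only term of the main fit, so the 2 libraries of a calf were treated as independent. The run-by-time and kit-by-time terms came from the same edgeR test with those terms added, the latter with RNA as a block. Standard errors were derived from the F statistics. All 10 members are named with values, other pathway genes where called in either kit (1 of them is not reported here), and the marker lists by counts. The members and lists were chosen with earlier results of these data known. Animal numbers pair the samples, since the titles give the animal. Deviations from the group means correlated above 0.1 in 11 of 12 Takara pairs (median r 0.232) and in 2 of 12 Lexogen pairs (median r 0.0208). Alternatives were DESeq2 1.42.0, total count scaling, no filter, sense counts, the animal as a block, each placement of animal 20, the runs, and leaving out each animal. The fits were tested on simulated data. Fits without the block recovered 72.2% of the tested 2-fold changes and 97.9% of the 4-fold changes with the Takara kit. With the Lexogen kit they recovered 36.2% and 67.4%, so a gene not called there may still differ. Positions are from RefSeq's ARS-UCD2.0 annotation. Group labels are GEO's. Animal 20 was left out of the comparisons because the study's sample table and its stated sample counts differ from the labels. Matched in numeric order, the table and the labels also differ for the other calves that lack a library.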

Additional observations from a re-analysis of the deposited data

Results flagged for a closer look

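The time effect of CLOCK with the Takara kit differed between the 2 runs of sample numbers, with a run-by-time term of −1.40 on the log2 scale (edgeR, adjusted p 0.0029). It was −0.37 with the Lexogen kit. The runs hold different calves, and what sets them apart was not tested.

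The 2 libraries of animal 20, left out of the comparisons, held more NFIL3 than any 6AM library, at 272 CPM with the Takara kit and 522 CPM with the Lexogen kit, where the highest 6AM libraries held 44.8 and 97.6 CPM. With the Takara kit all 13 control libraries held more PER3, CLOCK and DBP than animal 20, which held 0.986, 6.35 and 3.505 CPM. Of the 13 libraries at 6PM, 9, 11 and 12 also held more PER3, CLOCK and DBP than animal 20. More PER1 than animal 20 was held by 11 of 13 libraries at 6AM and 12 of 13 at 6PM. With the Lexogen kit all 13 controls held more PER3 and CLOCK than animal 20, but only 6 of 13 held more DBP. At 6PM 8, 11 and 9 of 13 Lexogen libraries held more PER3, CLOCK and DBP. More PER1 than animal 20 was held by 2 of 13 Lexogen libraries at each time.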

How the results depend on the processing

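With the Takara kit 1 clock gene was called, and 3 were under total count scaling, 2 with sense counts, 0 with animal 20 counted as 6AM, 0 in the first run alone, and 0 to 3 when each animal was left out in turn. Of all genes the share called was 28.9%, and 27.6% under total count scaling, 29.4% with sense counts and 20.6% in the first run alone. Of the other pathway genes 8 were called, and 5 under total count scaling, 0 with animal 20 as 6AM, 2 in the second run alone, and 7 to 10 leaving out animals. With animal 20 as 6AM no gene at all was called with that kit, while 3804 reached an unadjusted p below 0.05. Matched in numeric order, the study's sample table reverses the labels for every calf that lacks a library. Moving animal 20 alone therefore follows neither source in full. Total count scaling moved the median log2 fold change of all genes from −0.05 to −0.27 and the calls from 2325 higher and 1321 lower to 1301 higher and 2184 lower. Under it the run difference of CLOCK was −1.20 in place of −1.40 and no longer passed the test, leaving 0 members called. With the Lexogen kit no alternative called a clock gene. Of the other genes 2 were called, and 4 by DESeq2, 5 without the filter on low counts, and 0 with the animal as a block, with animal 20 as 6AM or in the second run alone. The replicate block changed no call of a clock gene.

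Some signs turned. With the Takara kit CRY2 was −0.0936 under total count scaling and −0.45 in the second run, and CLOCK was 0.27 in the first run. With the Lexogen kit PER1 was −0.12 under total count scaling, −1.18 with the block, −0.0363 with animal 20 as 6AM and −0.76 in the first run, DBP was −0.15 in the first run, and GSK3B was −0.094 in the second. DBP did not pass the filter in the second Lexogen run alone and has no value there. Leaving out animals gave CRY2 −0.12 to 0.20 with the Takara kit, and PER1 −0.51 to 0.48 and TEF −0.31 to 0.74 with the Lexogen kit. At least 4 of the 26 Lexogen libraries had no read of PER1, CRY2, DBP or TEF, which limits their values in that kit.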
